A study of Mus musculus with 32 samples.

Results

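The MHC class II antigen presentation genes of the mouse small intestine were followed across 4 genotypes and both sexes. The 9 members were H2-Aa, H2-Ab1, H2-Eb1, Cd74, H2-DMa, H2-DMb1, H2-Oa, H2-Ob and Ciita, and every probe set that the platform annotation assigns to them was used. That gave 19 probe sets of 45265, 14 on the Affymetrix chip 430A and 5 on 430B. Of these, 16 named 1 gene and 3 named several, so that 8 of the 9 genes had a probe set of their own, among 18195 genes tested. H2-DMb1 was read only by 2 probe sets that also name H2-DMb2.

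MHC class II molecules are heterodimers on the surface of antigen-presenting cells that show peptides from engulfed material to CD4+ T cells. Dendritic cells, macrophages and B cells carry them at all times, and in the small intestine the absorptive epithelial cells carry them as well, more so under interferon-gamma. Ciita, the class II transactivator, binds no DNA itself and switches the genes on through factors that sit on a conserved set of promoter elements named X and Y.

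The groups were Fabp2-/-;Fabp6-/-, Fabp2-/-, Fabp6-/- and WT C57BL/6J mice, female and male, all 10 weeks old, fasted and on a standard lab diet. Fabp2 and Fabp6 encode the intestinal fatty acid-binding protein and the ileal bile acid-binding protein. Both disruptions are germline and were kept on the C57BL/6J background. The double mutants came from interbreeding the 2 single lines, so each genotype is 1 line. A difference between genotypes thus cannot be told apart from one between lines. The study does not say how cages or litters were spread over the pools. RNA of the whole small intestine of 2 mice was pooled, and 2 pools stood for each of the 8 groups, which gave 16 pools and 32 arrays. Values are log2 signals after robust multichip average (RMA) normalization, so a difference of 1 is a factor of 2 in signal. Each chip's group means were fitted with limma, and a gene was called at a Benjamini-Hochberg adjusted p (FDR) under 0.2 with an absolute log2 fold change over 0.5, the study's thresholds. A gene read on both chips counted as called if either chip called it.

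The targeted genes were read first. Fabp2 lay between 8.98 and 9.98 in the 8 pools without Fabp2 and between 12.58 and 13.05 in the other 8. Fabp6 lay between 4.80 and 5.04 in 7 of the 8 pools labelled as lacking it and between 10.50 and 11.32 in the 8 with an intact gene, but it was 9.21 in the library labelled Fabp6-/- female replicate 2. That library goes against its label. The calls in Fabp6-/- mice against WT mice, their sex comparison and the test of non-additivity are given with and without it. Other values include it unless stated. The enterocyte markers were all above the mean signal of their chip (9 of 9 measured), and for 14 of the 16 pools the 430B array matched best with the 430A array of the same pool, the exceptions being WT female replicate 2 and Fabp2-/- female replicate 1.

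In the intestines of double mutants (Fabp2-/-;Fabp6-/-), 6 of the 8 measured class II genes were lower than in WT mice when both sexes were averaged (4 pools against 4), beside 0.489% of all genes called lower. They were H2-Aa, H2-Ab1, H2-Eb1, Cd74, H2-DMa and Ciita. H2-Aa, H2-Ab1, H2-Eb1 and the invariant chain gene Cd74 were left at 26.7% to 49.6% of the WT signal on the linear scale. H2-Oa and H2-Ob, the chains of the class II peptide-exchange inhibitor H2-O, were not called. No member was called higher, beside 0.478% of all genes. In bulk tissue, fewer cells with class II and less class II RNA per cell cannot be told apart.

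H2-Aa encodes the alpha chain of the presenting molecule I-A and was read by 2 probe sets on each chip. On 430A (1452431_s_at) it measured 8.67 and 8.22 in female and 8.33 and 8.54 in male Fabp2-/-;Fabp6-/- pools, against 9.83 and 10.22 in female and 10.29 and 10.29 in male WT pools. It was 9.87 and 9.18 in female and 10.12 and 9.81 in male Fabp2-/- pools, and 9.40 and 9.93 in female and 10.00 and 9.89 in male Fabp6-/- pools. The 4 double-mutant pools lay below each of the other 12. Averaged over sexes, H2-Aa fell by 1.72 ± 0.15 (log2 fold change ± SE, 4 pools against 4) to 30.4% of the WT signal, with an adjusted p of 3.01e-06. On 430B (1443783_x_at) H2-Aa fell by 1.91 ± 0.14, to 26.7% of WT, with an adjusted p of 2.5e-07. The other H2-Aa probe set of each chip gave a smaller fall, -1.33 ± 0.11 on 430A and -1.42 ± 0.09 on 430B, in a fit over every probe set of both chips, in which 0.362% were called lower.

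H2-Ab1 encodes the beta chain that pairs with H2-Aa. Its signal (1451721_a_at) was 9.60 and 9.17 in female and 9.22 and 9.50 in male Fabp2-/-;Fabp6-/- pools, against 10.64 and 10.92 in female and 11.00 and 11.06 in male WT pools. Fabp2-/- pools gave 10.45 and 10.29 in females and 10.79 and 10.55 in males, while Fabp6-/- pools gave 10.34 and 10.97 in females and 10.98 and 10.87 in males. Again no double-mutant pool reached the lowest of the other 12. H2-Ab1 fell by 1.53 ± 0.12 in the double mutants, to 34.6% of WT (adjusted p = 1.71e-06), and its other 2 probe sets both gave -1.30. The beta chain of the presenting molecule I-E, H2-Eb1 (1417025_at), was 9.56 and 9.33 in female and 9.47 and 9.47 in male Fabp2-/-;Fabp6-/- pools, against 10.30 and 10.42 in female and 10.60 and 10.55 in male WT pools. In the single mutants it ran between 10.01 and 10.56, so that the double-mutant pools stood apart from all others. H2-Eb1 fell by 1.01 ± 0.09, to 49.6% of WT (adjusted p = 3.01e-06). The alpha chain that would pair with it, H2-Ea, is listed as a pseudogene in the RefSeq table, and its log2 fold change was 0.05 ± 0.06 (adjusted p = 0.805).

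Cd74 encodes the invariant chain, which blocks the peptide groove of new class II molecules and guides them to endosomes. Its mean signal was above that of 99.2% of the probe sets on its chip. Signals (1425519_a_at) were 11.21 and 10.61 in female and 10.75 and 11.06 in male Fabp2-/-;Fabp6-/- pools, against 11.91 and 12.10 in female and 12.26 and 12.32 in male WT pools. Fabp2-/- pools read 12.02 and 11.85 in females and 12.14 and 12.00 in males, and Fabp6-/- pools read 11.91 and 12.09 in females and 12.21 and 12.22 in males. Single mutants and WT mice shared 1 range and the double mutants lay under it. Cd74 fell by 1.24 ± 0.11, to 42.3% of WT (adjusted p = 3.1e-06).

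H2-DMa encodes the alpha chain of H2-DM, which takes the invariant chain fragment out of the groove so that a peptide can bind. On 430A (1422527_at) it was 7.46 and 7.09 in female and 6.94 and 7.14 in male Fabp2-/-;Fabp6-/- pools, against 8.37 and 8.35 in female and 8.45 and 8.56 in male WT pools. Fabp2-/- pools spread from 7.67 to 8.69 and Fabp6-/- pools from 7.71 to 8.51, without reaching the double-mutant range. H2-DMa fell by 1.27 ± 0.13, to 41.4% of WT (adjusted p = 1.65e-05). Its probe set on 430B disagreed in size, with a log2 fold change of -0.24 ± 0.08 and an adjusted p of 0.101, which misses the fold threshold.

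H2-DMb1, the beta chain partner of H2-DMa, cannot be separated here from its near-identical neighbour H2-DMb2. The brighter shared probe set (1449580_s_at) gave 8.50 and 8.07 in female and 7.87 and 8.03 in male Fabp2-/-;Fabp6-/- pools, against 9.57 and 9.60 in female and 9.83 and 9.97 in male WT pools. All 4 double-mutant pools were below the other 12. In the fit over every probe set its log2 fold change was -1.62 ± 0.13 with an adjusted p of 2.47e-06, and that of the other shared probe set (1418638_at) was -1.29 ± 0.14 with an adjusted p of 4.52e-05. The probe sets that name H2-DMb2 alone gave -0.12 ± 0.11 on 430A and -0.19 ± 0.13 on 430B, neither of them called (adjusted p = 0.672 and 0.473).

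H2-Oa and H2-Ob form H2-O, which holds back H2-DM and is known mainly from B cells and some dendritic cells. H2-Oa (1419297_at) was 6.55 and 6.67 in female and 6.36 and 6.44 in male Fabp2-/-;Fabp6-/- pools, against 6.37 and 6.35 in female and 6.47 and 6.38 in male WT pools. H2-Ob (1440837_at) lay among the dimmest probe sets of its chip and was 3.76 and 3.53 in female and 3.94 and 3.89 in male Fabp2-/-;Fabp6-/- pools, against 3.69 and 3.66 in female and 3.74 and 3.80 in male WT pools. For both genes the groups overlapped. The log2 fold changes were 0.11 ± 0.15 for H2-Oa (adjusted p = 0.784) and 0.06 ± 0.23 for H2-Ob (adjusted p = 0.935). RMA values carry no detection call, and a fall of H2-Ob may not be detectable at so low a signal. A probe set that names H2-Ob together with Gm20506 gave -0.28 ± 0.10 (adjusted p = 0.168 in the fit over every probe set).

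Ciita is the one regulator of transcription among the members, and its probe sets were of modest signal. On 430B (1447075_at) it was 4.74 and 4.61 in female and 4.75 and 4.81 in male Fabp2-/-;Fabp6-/- pools, against 5.08 and 5.23 in female and 5.60 and 5.45 in male WT pools. Fabp2-/- pools gave 5.08 and 4.93 in females and 5.12 and 5.01 in males, and Fabp6-/- pools gave 5.07 and 5.23 in females and 5.56 and 5.69 in males. The double-mutant pools were the lowest 4 of the 16. Ciita fell by 0.62 ± 0.07 on 430B, to 65.3% of WT (adjusted p = 4.36e-05), and fell by 0.56 ± 0.11 on 430A, to 67.6% of WT (adjusted p = 0.0055). On 430A (1421211_a_at) the double-mutant pools, at 5.65 to 5.74, stood below WT but not below Fabp2-/- female replicate 2, at 5.49. The probe set of higher mean signal on that chip gave -0.49, just short of the fold threshold.

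Over all 19 member probe sets, the 4 double-mutant pools lay below the other 12 in 14, beside 0.570% of all probe sets, and below the 4 WT pools in 17, beside 5.71%. Several of these probe sets read the same gene and share the same RNA, so that they are not separate observations.

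**Figure D1:**
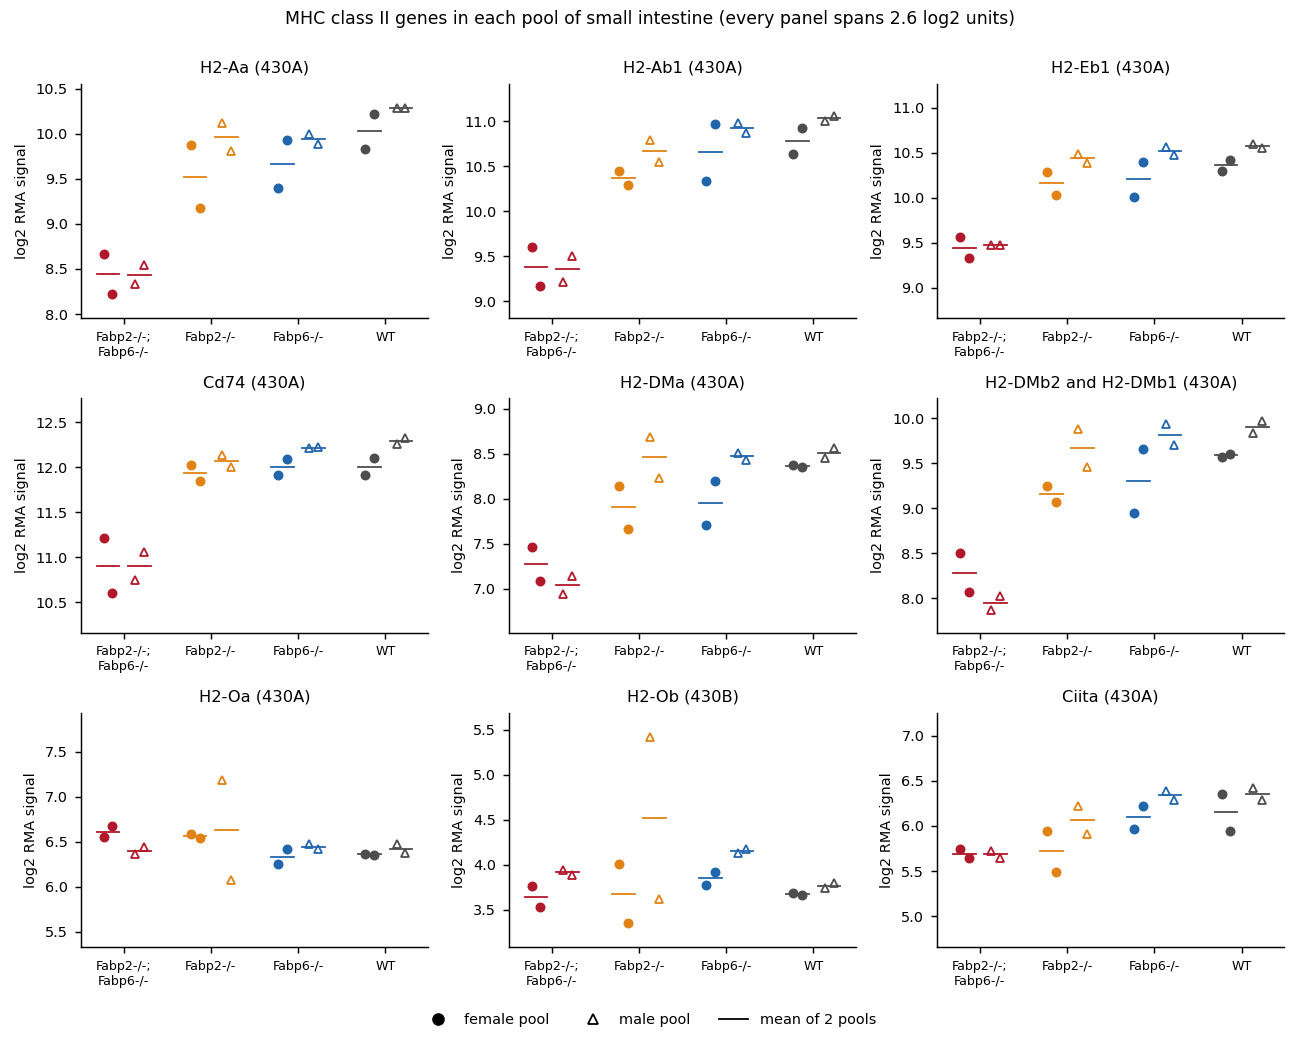
Log2 RMA signal of the class II genes in each pool, by genotype, with filled circles for female pools, open triangles for male pools and lines for the mean of 2 pools. The double-mutant pools are separate from all others in H2-Aa, H2-Ab1, H2-Eb1, Cd74, H2-DMa and the shared H2-DMb probe set, and overlap with other groups in H2-Oa, H2-Ob and the 430A probe set of Ciita.

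The promoters are shown because Ciita acts through the X and Y elements, which both the members called lower and those not called may carry. RefSeq promoter windows on GRCm38.p6, from 250 bases before to 50 after the annotated start, were on hand for 6 of the 9 members. The letters of the X element searched were GCAAC, or GTTGC on the other strand, those of the Y element were ATTGG, or CCAAT on the other strand, and a pair was GCAAC followed after 15 to 35 bases by ATTGG on the strand of the gene. No searched motif overlaps another. Among 32851 windows of the genome, 35.2% held GCAAC and 37.4% held ATTGG on either strand, and 0.521% held the pair. The pair was in the windows of 4 of the 6 members, shown here on the strand of the gene with the X and Y letters in capitals. H2-DMb1 is shown beside them with ATTGG in capitals, since its window holds no GCAAC on either strand. Only exact letters were searched. The H2-DMb1 sequence holds GTAAC before ATTGG, which differs from GCAAC in the second letter and was not counted.
H2-Aa, chr17:34287857-34287914, minus strand: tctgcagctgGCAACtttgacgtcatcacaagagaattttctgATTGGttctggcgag
H2-Eb1, chr17:34305766-34305822, plus strand: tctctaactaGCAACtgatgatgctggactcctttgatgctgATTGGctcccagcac
H2-Oa, chr17:34092293-34092350, plus strand: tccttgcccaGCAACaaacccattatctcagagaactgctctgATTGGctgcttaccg
H2-Ob, chr17:34238808-34238862, plus strand: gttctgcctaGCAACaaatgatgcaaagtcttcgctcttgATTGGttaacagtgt
H2-DMb1, chr17:34153085-34153144, plus strand: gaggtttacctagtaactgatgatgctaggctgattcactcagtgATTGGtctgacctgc

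The spacing was alike in the 4 genes with the pair. Between the X and Y letters lay 28 bases in H2-Aa and in H2-Oa, 27 in H2-Eb1 and 25 in H2-Ob. The first base of ATTGG stood at -48 from the annotated start in H2-Aa, -59 in H2-Eb1, -61 in H2-DMb1, -57 in H2-Ob and -43 in H2-Oa. H2-DMa has 2 annotated starts and its windows hold the pair at neither. Such a match is a description of letters and shows no binding. H2-Aa and H2-Eb1 were among the genes called lower in the double mutants, whereas H2-Oa and H2-Ob, with the same pair of letters, were not called. At the low signal of H2-Ob a fall may not be detectable, and the mean signal of H2-Oa was above that of 47.0% of the probe sets on its chip. Whether the letters bear on these changes was not tested.

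**Figure D2:**
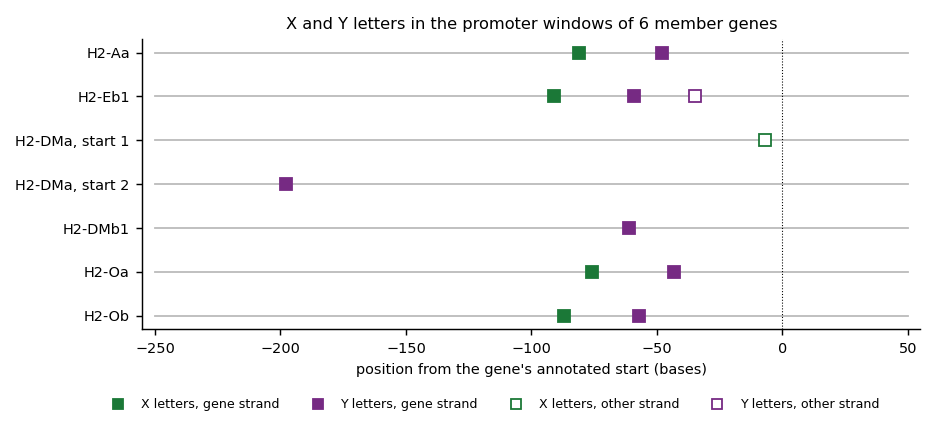
Position of the X letters (green) and Y letters (purple) in the promoter windows of 6 member genes, in bases from the annotated start, with filled squares for the strand of the gene and open squares for the other strand. Squares mark the first base of the letters, and only exact letters are marked. In H2-Aa, H2-Eb1, H2-Oa and H2-Ob a filled X stands before a filled Y, with 25 to 28 bases between their letters, and H2-DMb1 has the filled Y alone.

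Each sex was then set against WT mice of the same sex, the comparison that the study made. In males 6 of the 8 genes were called lower, beside 0.654% of all genes, and in females 5 of the 8, beside 0.561%. The gene that separated the counts was Ciita. In females its log2 fold change was -0.46 ± 0.15 on 430A (adjusted p = 0.206) and -0.48 ± 0.09 on 430B (adjusted p = 0.0198), short of both thresholds on 430A and of the fold threshold on 430B. In males it fell by 0.67 ± 0.15 on 430A and fell by 0.75 ± 0.09 on 430B (adjusted p = 0.0297 and 0.000502).

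The fall of the other 5 genes was in size somewhat greater in males. H2-Aa on 430B fell by 1.58 ± 0.20 in females (adjusted p = 0.000669) and fell by 2.23 ± 0.20 in males (adjusted p = 7.91e-06), to 33.4% and 21.3% of WT. Cd74 fell by 1.10 ± 0.15 in females and fell by 1.39 ± 0.15 in males (adjusted p = 0.00145 and 8.81e-05). H2-DMa fell by 1.08 ± 0.18 in females and fell by 1.46 ± 0.18 in males (adjusted p = 0.00686 and 0.000247). The difference between the sexes did not pass when tested directly. In the limma interaction of sex with the double disruption no member was called, beside 0.00550% of all genes called in either direction, and 1 of the 11 member tests had an unadjusted p under 0.05. That was H2-Aa on 430B, at 0.65 ± 0.28 (unadjusted p = 0.0339, adjusted p = 0.999), and the interactions of Ciita were 0.21 ± 0.21 and 0.26 ± 0.13 (adjusted p = 0.797 and 0.999).

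In the single mutants most changes of the class II genes from WT missed the fold threshold of 0.5. In Fabp6-/- mice no member was called by limma in females, in males or over both sexes, beside 0.451%, 0.484% and 0.363% of all genes in either direction, with 3, 1 and 3 of 11 member tests at an unadjusted p under 0.05. Over both sexes the largest falls among these tests were those of H2-Aa, -0.37 ± 0.14 on 430B (adjusted p = 0.22) and -0.35 ± 0.15 on 430A (adjusted p = 0.286). Cd74 differed by -0.04 ± 0.11 and Ciita by -0.04 ± 0.11 on 430A and 0.04 ± 0.07 on 430B. Without the library that goes against its label, H2-Aa and H2-DMa were called in Fabp6-/- females, 2 genes in place of 0, with 1 Fabp6-/- female pool left, beside 1.73% of all genes called in that fit. Over both sexes H2-Aa was then called, beside 0.654% of all genes.

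In Fabp2-/- mice 1 member was called in females, beside 0.786% of all genes in either direction, and by limma 0 in males, beside 0.687%, or over both sexes, beside 0.676%. The call was H2-Aa on 430B, which was 7.38 and 6.70 in Fabp2-/- females, against 7.44 and 7.88 in WT females, so that it rested on 1 pool well below and 1 just below the WT values. Of these 4 arrays, those of Fabp2-/- female replicate 1 (7.38) and WT female replicate 2 (7.88) are the 430B arrays that did not match best with their own 430A array. Its log2 fold change was -0.62 ± 0.20 (adjusted p = 0.135), and it was lost without Fabp2-/- female replicate 2 or without WT female replicate 2. Over both sexes Ciita differed by -0.31 ± 0.07 on 430B and by -0.36 ± 0.11 on 430A (adjusted p = 0.0142 and 0.136). H2-Aa differed by -0.47 ± 0.14 on 430B (adjusted p = 0.0791) and H2-Ab1 by -0.38 ± 0.12 (adjusted p = 0.2). All of these were under the fold threshold. Of the 11 member tests, 5 had an unadjusted p under 0.05 in females, 2 in males and 5 over both sexes. These comparisons share the WT pools with that of the double mutants.

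**Figure D3:**
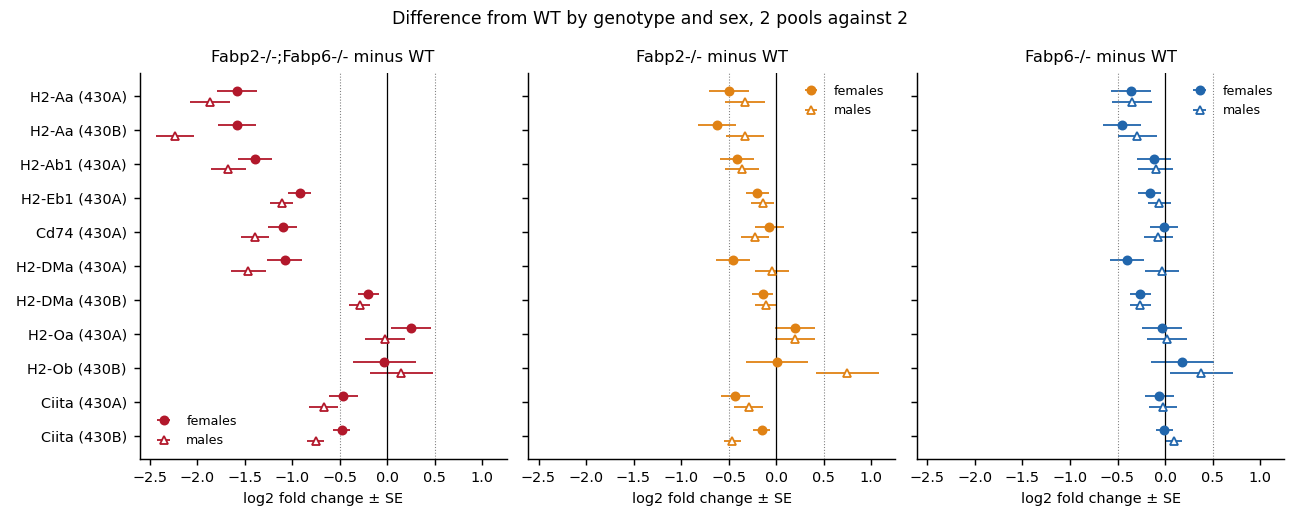
Log2 fold change from WT (± SE, 2 pools against 2) of each member test in Fabp2-/-;Fabp6-/-, Fabp2-/- and Fabp6-/- mice, with filled circles for females and open triangles for males; dotted lines mark the fold threshold of 0.5. In the left panel H2-Aa, H2-Ab1, H2-Eb1, Cd74 and H2-DMa (430A) lie between -0.92 and -2.23, and in the other panels no member test lies below -0.62.

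Set directly against each single mutant over both sexes, the double mutants were lower in 5 of 8 genes than Fabp2-/- mice, beside 0.429% of all genes, and in 6 of 8 than Fabp6-/- mice, beside 0.780%. Cd74 was lower by 1.10 ± 0.11 than in Fabp2-/- mice and was lower by 1.20 ± 0.11 than in Fabp6-/- mice (adjusted p = 1.26e-05 and 5.12e-06). Ciita again made the difference between the counts. Against Fabp6-/- mice it fell by 0.66 ± 0.07 on 430B (adjusted p = 1.07e-05), and against Fabp2-/- mice its log2 fold change was -0.31 ± 0.07 (adjusted p = 0.0176), under the fold threshold.

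The change in the double mutants was then set against the sum of the single-mutant changes. The test took the double-mutant mean minus both single-mutant means plus the WT mean, on the log2 scale. In 5 of 8 genes the change went beyond the sum, beside 0.643% of all genes with a negative departure called. The departure was -1.06 ± 0.15 in Cd74 (adjusted p = 0.00126), whose single-mutant changes summed to -0.19 against -1.24 in the double mutants. It was -1.04 ± 0.18 in H2-Ab1 (adjusted p = 0.00443), where the single changes summed to -0.49 against -1.53. H2-Aa departed by -0.95 ± 0.21 on 430A and by -1.06 ± 0.20 on 430B (adjusted p = 0.0225 and 0.0133), H2-DMa on 430A by -0.80 ± 0.18 (adjusted p = 0.0238) and H2-Eb1 by -0.73 ± 0.12 (adjusted p = 0.00443). The 430B probe set of H2-DMa had the opposite sign, at 0.15 ± 0.11 (adjusted p = 0.705), and was not called. The shared H2-DMb probe set (1449580_s_at) departed by -1.12 ± 0.19 (adjusted p = 0.0046 in the fit over every probe set, of which 0.495% were called). Without the library labelled Fabp6-/- female replicate 2 the same 5 genes were called, with departures from -0.63 in H2-Eb1 to -1.01 in Cd74. Ciita did not pass, at -0.16 ± 0.15 on 430A and -0.35 ± 0.09 on 430B (adjusted p = 0.751 and 0.0754).

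**Figure D4:**
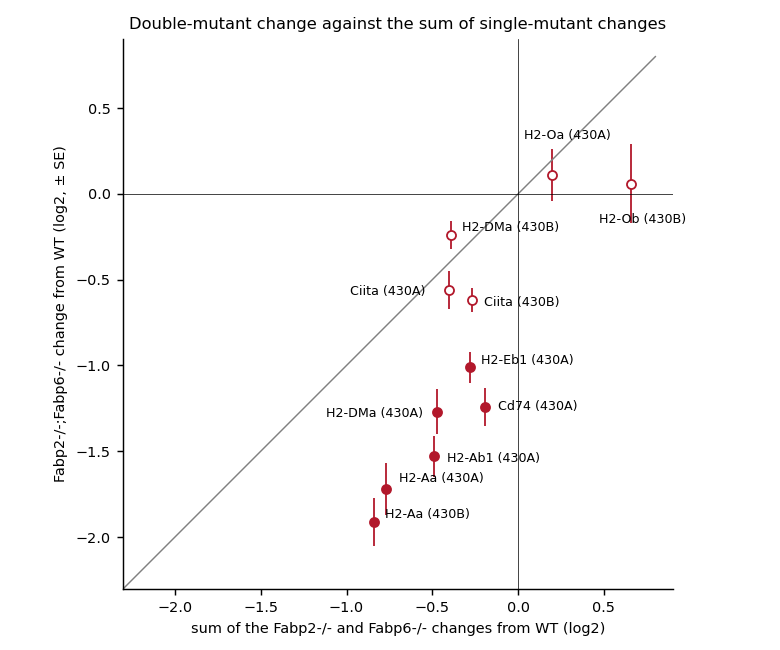
Change of each member test from WT in Fabp2-/-;Fabp6-/- mice (vertical, log2, ± SE) against the sum of the changes in Fabp2-/- and Fabp6-/- mice (horizontal, log2), averaged over sexes; filled points passed the test of non-additivity and the grey line marks equality. The filled points, from H2-Eb1 at -1.01 to H2-Aa (430B) at -1.91, lie below the line, H2-Oa and Ciita (430A) lie near it, and H2-DMa (430B) lies above it at -0.24.

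Females and males were next compared within each genotype. No member was called by limma in any of the 4 genotypes, beside 0.0769% of all genes in either direction in Fabp2-/-;Fabp6-/-, 0.0824% in Fabp2-/-, 0.407% in Fabp6-/- and 0.236% in WT mice, and 0, 6, 4 and 1 of the 11 member tests had an unadjusted p under 0.05. The signs were nevertheless uneven. The female minus male difference was negative in 11 of 11 member tests in Fabp2-/-, in Fabp6-/- and in WT mice, and in 3 of 11 in the double mutants, where it ranged from -0.27 to 0.29. The median over all tests was 0.00 in the first 3 genotypes and 0.02 in the double mutants. H2-Aa, H2-DMa and Ciita are each tested on both chips, and all members share the same pools, so that these signs are not separate observations. The Fabp6-/- tests include the library that goes against its label. Averaged over the 4 genotypes (8 pools against 8) no member was called, beside 0.176% of all genes, with 8 of 11 tests at an unadjusted p under 0.05. Ciita on 430B came nearest, at -0.25 ± 0.05 (adjusted p = 0.031), followed by H2-Eb1 at -0.21 ± 0.06 (adjusted p = 0.151), both under the fold threshold. The interactions with Fabp2-/- and with Fabp6-/- likewise held no called member, beside 0.0220% and 0.00550% of all genes, with 1 and 0 tests at an unadjusted p under 0.05.

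The sex comparison in Fabp6-/- mice depends on the library that goes against its label. Without it, 5 genes (Ciita, H2-Aa, H2-Ab1, H2-DMa and H2-Eb1) were called lower in the 1 remaining female pool than in males, in place of 0, and the share of all genes called in either direction was 1.10%, against 0.407% with all pools. Leaving out the other female pool in its place gave 0 members and 0.671% of all genes. In Fabp2-/- mice, leaving out male replicate 2 gave 3 calls, H2-DMa, H2-Oa and H2-Ob, beside 1.18% of all genes, and leaving out female replicate 1 gave 2, H2-Aa and H2-DMa, beside 0.703%, against 0.0824% with all pools.

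Fabp2-/- male replicate 1 had the highest signal of the 16 pools in probe sets of H2-Oa, H2-Ob, H2-DMa and H2-DMb. H2-Oa was 7.18 there and H2-Ob on 430B was 5.42, against at most 6.67 and 4.17 in the other 15 pools. H2-DMa on 430A was 8.69 and an H2-DMb probe set (1418638_at) was 6.37, against at most 8.56 and 6.07. The brighter H2-DMb probe set (1449580_s_at), at 9.88, and H2-DMa on 430B, at 7.39, were not highest there. Other pools reached 9.97 and 7.5. The summed linear signals of the marker lists that were highest in the same pool were those of B cells (1893, others at most 861), leukocytes (1236, others at most 686), macrophages (2348, others at most 2127) and plasma cells (8880, others at most 7677). H2-Aa on 430A was 10.12 and Cd74 was 12.14 in it, inside the range of the other pools without the double disruption.

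The marker sums of leukocyte types and of enterocytes are given beside the fall. T cells, which are not among the class II-bearing cells named above, are included. Leukocyte markers (3 of 3 measured) summed to 424 to 491 in Fabp2-/-;Fabp6-/- pools and 556 to 612 in WT pools. T cell markers (8 of 10) summed to 652 to 769 in the double mutants and 772 to 885 in WT mice, and B cell markers (9 of 10) to 735 to 758 in the double mutants and 774 to 841 in WT mice. Macrophage markers (10 of 10) summed to 1739 to 1893 in the double mutants and 2007 to 2127 in WT mice. Dendritic cell markers (7 of 8), which overlapped, summed to 629 to 667 in the double mutants and 602 to 677 in WT mice. Of the B cell list 5 markers, of the dendritic cell and T cell lists 4 each and of the macrophage list 3 had a mean below that of their chip. Enterocyte markers (9 of 10) summed to 43649 to 46047 in the double mutants and 41514 to 43571 in WT mice.

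In Fabp2-/- pools the sums were 434 to 1236 for leukocytes, 740 to 825 for T cells, 763 to 1893 for B cells, 1757 to 2348 for macrophages and 620 to 670 for dendritic cells. Fabp6-/- pools gave 489 to 686 for leukocytes, 780 to 939 for T cells, 702 to 859 for B cells, 1700 to 1872 for macrophages and 594 to 665 for dendritic cells. The mean centred log2 signal of H2-Aa, H2-Ab1, H2-Eb1 and Cd74 was -1.14 to -0.71 in double-mutant pools, -0.13 to 0.41 in Fabp2-/-, -0.05 to 0.47 in Fabp6-/- and 0.20 to 0.59 in WT pools. Between double mutants and WT mice over both sexes, limma called no B cell, dendritic cell, macrophage, plasma cell, leukocyte or enterocyte marker. Of the T cell list, beside 0.489% of all genes called lower and 0.478% called higher, 2 of 8 were lower. These were Cd8a, a coreceptor of cytotoxic T cells, at -0.69 ± 0.07 (adjusted p = 3.04e-05), and Cd3g, a chain of the T cell receptor complex, at -0.58 ± 0.12 (adjusted p = 0.00972). The part of these cells in the fall of class II was not tested.

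**Figure D5:**
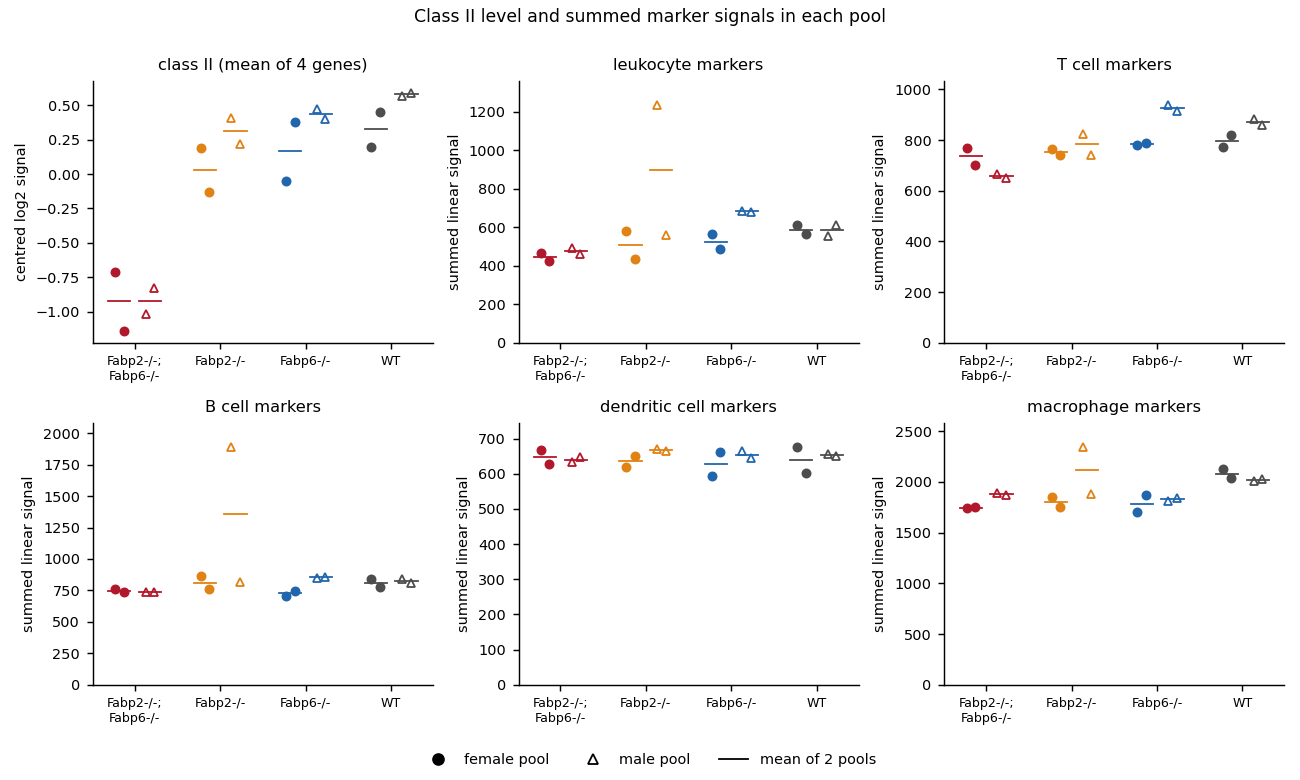
Mean centred log2 signal of H2-Aa, H2-Ab1, H2-Eb1 and Cd74 and summed linear signals of 5 marker lists in each pool, with filled circles for female pools, open triangles for male pools and lines for the mean of 2 pools. The double-mutant pools lie at -1.14 to -0.71 in the first panel, and Fabp2-/- male replicate 1 is high in leukocyte markers (1236) and B cell markers (1893).

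The genes around the members were counted from lists, in double mutants against WT mice over both sexes. In that comparison 0.489% of all genes were called lower and 0.478% higher. Of the class II transcription list 1 of 14 measured genes was lower (median log2 fold change -0.14, against 0.00 over all tests). It was Irf8, a factor of dendritic cells and macrophages, at -0.51 ± 0.09 (adjusted p = 0.00477). Rfx5 and Rfxank, subunits of the factor that binds the X element, differed by 0.06 ± 0.08 and 0.04 ± 0.08. Irf1, which interferon-gamma induces and which acts on a Ciita promoter, gave -0.39 ± 0.07 (adjusted p = 0.00628), under the fold threshold, and was called in males at -0.55 ± 0.11 (adjusted p = 0.0096).

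Of 11 genes of antigen processing and class II turnover 1 was lower (median -0.08), beside 0.489% of all genes. This was the lysosomal protease Ctsh, at -0.53 ± 0.07 on 430B (adjusted p = 0.000434). Ctss, which trims the invariant chain, differed by -0.15 ± 0.07 (adjusted p = 0.302) and Ifi30, the lysosomal thiol reductase, by 0.11 ± 0.07 (adjusted p = 0.505). Of the 6 costimulatory genes 0 were called (median -0.06), Cd86 being at -0.18 ± 0.10 (adjusted p = 0.379). H2-Ea, H2-Eb2 and H2-DMb2, the other class II genes, included no call (median 0.05).

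Of the class I and peptide loading list, in contrast, 5 of 10 were lower over both sexes (median -0.48), beside 0.489% of all genes. In males 8 genes were lower, beside 0.654%, and in females 3, beside 0.561%, and none was higher. Psmb9 and Psmb8, subunits of the immunoproteasome, fell by 1.22 ± 0.14 and fell by 1.10 ± 0.14 (adjusted p = 6.14e-05 and 0.000242). Tap1 and Tap2, which carry peptides into the endoplasmic reticulum, fell by 0.82 ± 0.10 and fell by 0.66 ± 0.09 (adjusted p = 0.000177 and 0.000265). In the interferon-gamma list 3 of 11 were lower over both sexes (median -0.12), beside 0.489% of all genes. Log2 fold changes were -2.32 ± 0.18 for the ubiquitin-like Ubd, -1.11 ± 0.08 for the GTPase Gbp2 and -0.59 ± 0.18 for the chemokine Cxcl9 (adjusted p = 1.67e-06, 6.64e-07 and 0.0803). The Cxcl9 probe set on 430B gave -0.06 ± 0.07. Ifng itself differed by -0.01 ± 0.06 and its receptor chain Ifngr1 by 0.09 ± 0.08 (adjusted p = 0.969 and 0.626). RMA values carry no detection call, so whether Ifng was detected cannot be read from them.

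The genes on 430A whose levels over the 16 pools were most like the mean profile of H2-Aa, H2-Ab1, H2-Eb1 and Cd74 were, in order of Pearson's r, Psmb8, Psmb9, Tap2, Bod1l, Ubd, Tle3, Tap1 and Iigp1, with r between 0.940 and 0.885. These values are descriptions without a test, since the double-mutant pools stand apart from the rest. Over deviations from the group means, which leave the genotypes out, r was 0.76 for Psmb8, 0.726 for Psmb9 and 0.653 for Bod1l. It was 0.476 for Tap1, 0.436 for Ubd, 0.422 for Tap2, 0.222 for Iigp1 and -0.242 for Tle3. Bod1l spanned only 5.83 to 6.24 over the pools. Among the members themselves, r of deviations with the same profile was 0.89 for H2-DMa on 430A and 0.47 on 430B. It was 0.79 for Ciita on 430B and 0.40 and 0.43 for its 2 probe sets on 430A, 0.46 for H2-Ob on 430B and 0.31 for H2-Oa, so that the probe sets of H2-DMa and of Ciita differed among themselves.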

How the data were processed

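The authors scanned 16 RNA pools on 430A and 430B arrays and made the deposited log2 signals by background correction and quantile normalization with RMA, each chip apart; its version is not given in the sources used here. The series matrix equalled these values in every cell. Arrays have no read depth, and their number limits the precision. Pools are of different mice, with 2 pools per group. In the main fit p-values rest on the spread between pools within groups. That spread was taken over all 8 groups and shrunk by limma toward that of the other genes on the chip.

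Genes were named from the platform annotation, in which 20393 probe sets of 430A named 1 gene, 691 several and 1606 none, and on 430B 14674, 245 and 7656. Where a chip held several probe sets for 1 gene, the one that varied most by interquartile range was tested (12394 tests on 430A, 9612 on 430B), a choice that favours probe sets that move. The 8 group means were fitted with limma 3.58.1 in R 4.3.3 (lmFit, eBayes, two-sided, 8 residual degrees of freedom), with Benjamini-Hochberg adjustment per chip and comparison, 20 comparisons in all. The fit was tested on simulated data. Members, gene lists and tests were chosen with earlier results of these data known. Named were all members, Fabp2 and Fabp6, up to 4 called genes per list and the 8 genes closest in profile; H2-Ea, H2-DMb2, Rfx5, Rfxank, Irf1, Ctss, Ifi30, Cd86, Ifng and Ifngr1 were named after their values were seen. Same-numbered pools deviated together in 1 of 28 group pairs (correlations -0.25 to 0.35), so replicate numbers were not taken to pair pools. Promoter windows came from RefSeq.

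Alternatives were another choice of probe set, filters on signal or spread, fewer arrays per fit, joint adjustment, an intensity trend, cyclic loess, a stricter FDR, a replicate block and omission of each pool; a fit over every probe set and one without 430B were added after the data were seen.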

Additional observations from a re-analysis of the deposited data

Results flagged for a closer look

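In H2-Aa on 430A (1452431_s_at), WT female replicate 1 read 9.83 and the other 3 WT pools read 10.22 to 10.29, a gap of 0.848 of the group's range, above Dixon's 95% critical value for 4 samples. It was 1 of 76 groups of 4 pools looked at, and chance flags about 1 in 20 groups. The double-mutant pools, at 8.22 to 8.67, lay below it.

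By the limma test of non-additivity, the difference between pools without and with Fabp6 was unlike in Fabp2-/- and Fabp2-intact mice in 5 genes. The log2 departures were -1.06 in Cd74, -0.95 in H2-Aa on 430A and -1.06 on 430B, -1.04 in H2-Ab1, -0.80 in H2-DMa on 430A and -0.73 in H2-Eb1. The 430B probe set of H2-DMa departed the other way, at 0.15, and was not called. The departure has the same value when Fabp2 is taken as the gene lost. It stayed called without the library labelled Fabp6-/- female replicate 2.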

How the results depend on the processing

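The calls in the double mutants held. With each pool left out in turn, 6 members were called against WT mice of both sexes, beside 166 to 206 of all 18195 genes in either direction. Against Fabp6-/- mice 6 were called, beside 202 to 285 genes. The counts were 5 to 6 against Fabp2-/- mice, beside 159 to 251 genes, and 5 to 6 for non-additivity, beside 252 to 370. The gene gained in these 2 was H2-Ob, without Fabp2-/- male replicate 2. Within 1 sex such a fit leaves 1 pool in a group, and no called member turned round. The single-mutant and sex counts moved. They ran from 0 to 2 in Fabp2-/- females, 0 to 2 in Fabp2-/- males, 0 to 1 over both Fabp2-/- sexes, 0 to 2 in Fabp6-/- females, 0 to 1 over both Fabp6-/- sexes and 0 in Fabp6-/- males. For females against males they ran from 0 to 3 in Fabp2-/-, 0 to 5 in Fabp6-/-, 0 to 1 over 4 genotypes and 0 in WT and double mutants, and for the sex interactions 0 to 1 with Fabp2-/- and 0 with the others. All genes called moved as well, from 51 to 245 in Fabp2-/- males, 38 to 314 in Fabp6-/- females, 8 to 214 for Fabp2-/- females against males and 11 to 201 for Fabp6-/- females against males, out of 18195. A group left with 1 pool was assumed to vary like the rest.

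The single call in Fabp2-/- females, H2-Aa, went to 0 with the probe set of highest mean signal, with only the arrays compared, with an intensity trend and robust prior, at an FDR under 0.05 and without 430B. Ciita on 430A against WT mice of both sexes missed the fold threshold with the probe set of highest mean signal (-0.49) and without WT female replicate 1 (-0.46), while 430B kept it. Of the values of called members under alternatives, 819 kept direction and call, 10 lost the call and 0 turned round. With a replicate block no count of called members differed from the main fit. The low-signal filter left H2-Ob and Ciita on 430B without a value.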
